A study of Mus musculus with 6 samples.

Results

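The glucocorticoid receptor gene *Nr3c1*, 7 genes of the chaperone machinery that folds and holds the receptor (*Fkbp5*, *Fkbp4*, *Hsp90aa1*, *Hsp90ab1*, *Ptges3*, *Stip1* and *Hspa8*) and 2 genes of receptor coregulators (*Ncoa2* and *Nrip1*) were followed in osteoblasts given the receptor's natural ligand in mice, corticosterone. These 10 genes were chosen by name, for their known roles, from the 24016 genes of the table, and all 10 were found in it by their Ensembl identifiers. The cells were MC3T3-E1 subclone 4, a mouse preosteoblast line derived from a single clone, labelled wild type, tissue bone and differentiated. Before treatment all cultures were differentiated for 6 days, with ascorbic acid at 50 µg/ml and β-glycerophosphate at 10 mM. One group of 3 libraries was treated with vehicle and the other group of 3 with 100 nM corticosterone, and the treatment lasted 24 h. The labels list 10 nM calcitriol, the active form of vitamin D, for the treatment of every sample, vehicle samples included. The growth text gives passages 4 to 10 and the batch label passages 6 to 12 for all 6 libraries, so passage did not separate the groups in the labels.

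RNA-seq was done on total RNA, and the values are read counts per gene that the authors had divided by a size factor per library, called normalized counts here. Between 19076586 and 25638645 reads fell on genes in the vehicle libraries and between 16020401 and 18992332 in the corticosterone libraries, so every vehicle library was deeper than every corticosterone library. All 11 osteoblast markers checked had reads, with a summed normalized count of 1487610 to 1539040 with vehicle and 1288060 to 1346960 with corticosterone. Of those 11 markers 9 fell and *Spp1* rose by a limma adjusted p under 0.05, a rule by which 8.2% of all genes fell and 8.49% rose. The adipocyte markers measured summed to 7.72 to 21.1 with vehicle and to 108 to 133 with corticosterone, nearly all of it *Fabp4*, while *Plin1* was at 0 in 5 of the 6 libraries (adjusted p = 0.68) and 4 of the 6 adipocyte markers were not used here. The chondrocyte markers summed to 1197 to 1504 with vehicle and 780 to 951 with corticosterone, where *Col2a1* fell by 0.80 on the log2 scale and *Col10a1* rose by 0.73. Muscle markers summed to 30.9 to 40.9, leukocyte markers to 44.8 to 62.4 and endothelial markers to 0 to 9.73 over all 6 libraries. The part of these marker shifts in the changes given below was not tested, and in a bulk sample fewer cells of a type and less RNA per cell cannot be told apart. Of 10 other known targets of the receptor, 8 rose, *Cdkn1a* fell by 0.37 on the log2 scale, and *Mt2* had a log2 fold change of 1.62 with a limma adjusted p of 0.22. By the same rule 8.49% of all genes rose. The targets were chosen with earlier results of these data known, so their count is no test of receptor activity.

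The glucocorticoid receptor is a transcription factor that waits in the cytoplasm until a steroid binds it. Newly made receptor is received by HSP70 (here *Hspa8*, the constitutive form), handed over by the adaptor STIP1 (also called HOP) to HSP90 (*Hsp90aa1* and *Hsp90ab1*), and held in a state that can bind hormone with the help of p23 (*Ptges3*). The immunophilins FKBP51 (*Fkbp5*) and FKBP52 (*Fkbp4*) then compete for the same place on HSP90: FKBP51 lowers the receptor's affinity for hormone and FKBP52 favours its movement to the nucleus. In the nucleus the receptor recruits coregulators such as NCOA2 (GRIP1), which acts as a coactivator or a corepressor depending on the gene, and NRIP1 (RIP140), mostly a corepressor. *Fkbp5* is itself a classical target gene of the receptor, and in bone the receptor mediates the loss of osteoblast function seen with excess glucocorticoid.

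The place where these partners meet is written in the last codons of the chaperone genes. STIP1 holds HSP90 and HSP70, and FKBP51 and FKBP52 hold HSP90, through repeats that bind the acidic tail of the chaperone. For this reason the last 30 coding bases of *Hsp90aa1*, *Hsp90ab1* and *Hspa8* are shown. The bases are given 5′ to 3′ on the coding strand from the GENCODE M21 transcripts *Hsp90aa1*-202, *Hsp90ab1*-201 and *Hspa8*-201, with the codons for Glu-Glu-Val-Asp and the stop codon in capitals.
Hsp90aa1: gacacatcacgcatgGAAGAAGTAGACTAA
Hsp90ab1: gatgcctcgcgcatgGAAGAGGTGGATTAA
Hspa8: tcaggccccaccattGAAGAGGTGGATTAA
All 3 genes end in the same 4 amino acids. In capitals *Hsp90ab1* and *Hspa8* are identical in these bases, while *Hsp90aa1* spells the same tail with other codons.

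With corticosterone the 10 genes moved in different directions. *Fkbp5* rose 5.51-fold, *Hspa8* rose by 23.0% and *Hsp90aa1* by 13.6%, while *Nr3c1* itself fell by 26.2%. The other 6 genes did not pass an adjusted p under 0.05 with limma. By that rule 3 of 10 genes were called higher, where 8.49% of all 24016 genes were, and 1 of 10 lower, where 8.2% of all genes were. Most of the 10 are strongly expressed, and among the 10558 genes with a mean of at least 100 the shares called were 17.1% higher and 15.5% lower, so 4 of 10 in either direction stands beside 32.6% of such genes. With the further demand of an absolute log2 fold change over 1, *Fkbp5* alone was called. By this rule 2.78% of all genes were called, 1.38% higher and 1.4% lower, and at an unadjusted p still 0 of the 10 genes passed in the lower direction. In 7 of the 10 genes the 2 groups of libraries did not overlap, beside 29.6% of all genes and 49.0% of genes with a mean of at least 100. The median log2 fold change of the 10 was -0.05, against -0.01 for all genes. Scaling moved the balance over the whole table: 50.9% of called genes were higher in the values as deposited, 40.3% when all libraries were scaled to the same total and 34.2% with upper-quartile scaling. These scalings took 0.04 and 0.07 off the median log2 fold change, in that order. Of the 10 genes, 2 were then called higher and 3 lower under either scaling.

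**Figure D1:**
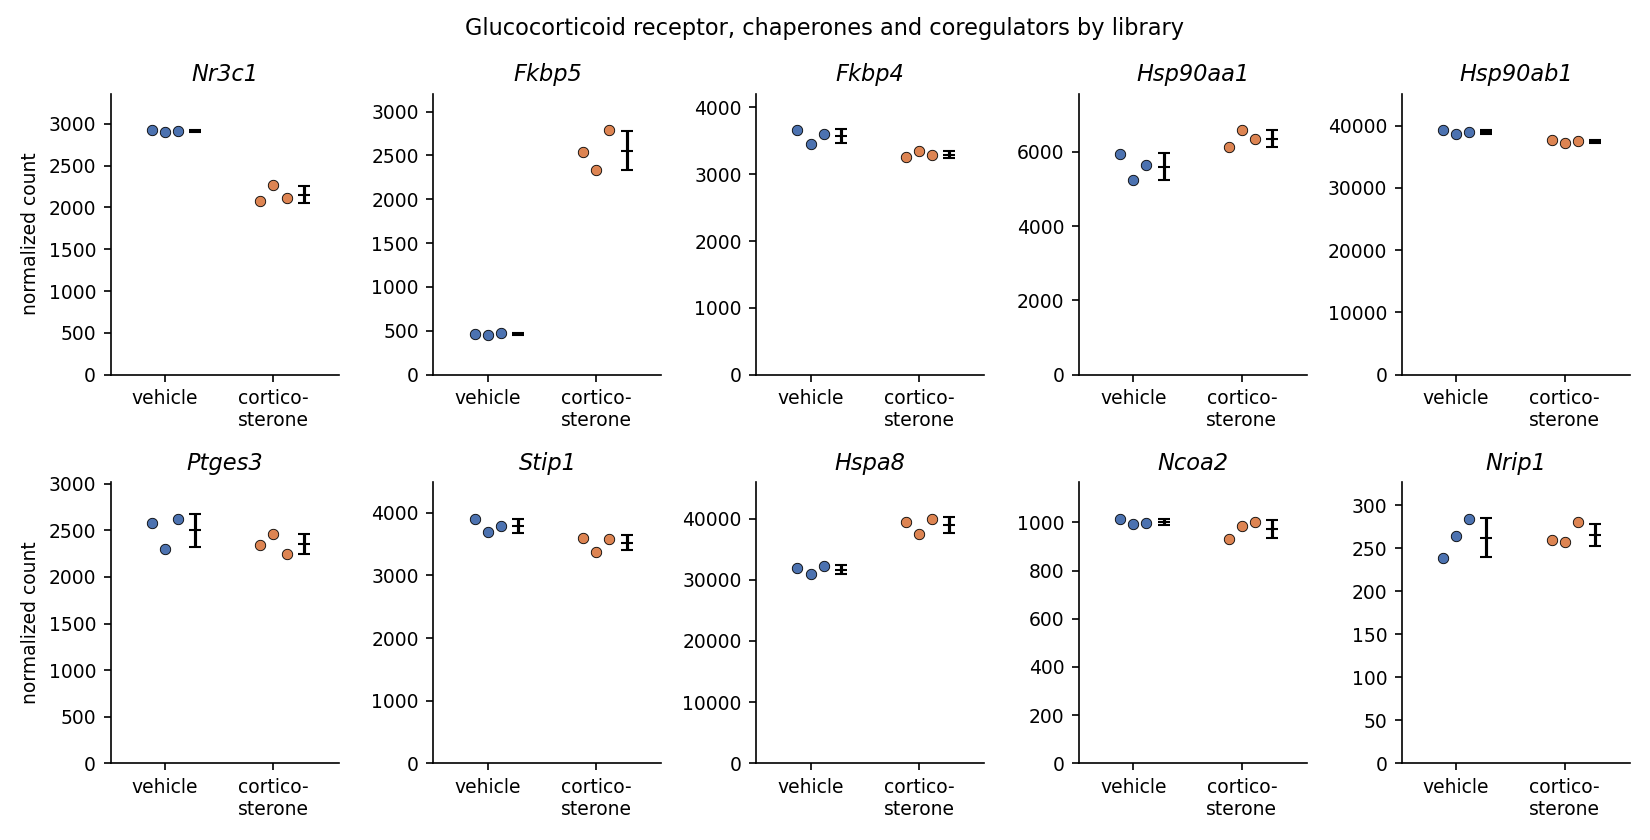
Normalized count (y axes, each from 0) of each of the 10 genes in the 3 vehicle and 3 corticosterone libraries. Points are libraries, and the black marks are the group mean and SD. *Fkbp5* goes from 463 ± 13.5 to 2556 ± 226, *Nr3c1* from 2912 ± 12.2 to 2150 ± 103, and the points of *Ptges3*, *Ncoa2* and *Nrip1* overlap between groups.

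**Figure D2:**
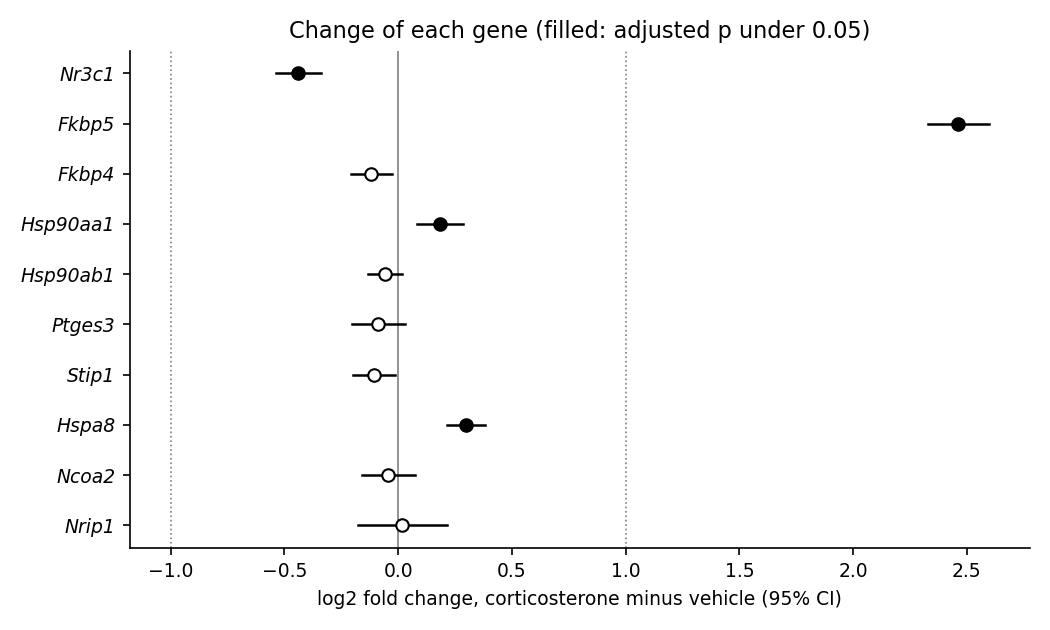
Log2 fold change of each gene, corticosterone minus vehicle (x axis), with its 95% confidence interval from limma. Filled points have an adjusted p under 0.05 over all genes, and dotted lines mark an absolute log2 fold change of 1. *Fkbp5* lies at 2.46, beyond the dotted line, and the other 9 genes lie between -0.44 and 0.30.

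The receptor gene fell. *Nr3c1* (ENSMUSG00000024431, mm10 chromosome 18, 39410545 to 39519421, minus strand) had normalized counts of 2923, 2899 and 2913 in the vehicle libraries and of 2071, 2266 and 2112 in the corticosterone libraries. Every corticosterone library lay below every vehicle library, by more than the spread within either group. The log2 fold change was -0.44 (SE 0.05, 95% confidence interval -0.54 to -0.34, limma adjusted p = 2.7e-06), from a mean of 2912 ± 12.2 (SD, n = 3) to 2150 ± 103. The vehicle SD was below the 50.3 that counting alone gives at these depths, so the closeness of the vehicle libraries is no measure of their precision. The fall was called under every alternative tried, with log2 fold changes of -0.48 to -0.41 when each library was left out in turn. Between 1651 and 3756 reads stood behind each value, and 0.13% of the gene's 31-base words occur in another gene, so it is nearly free of reads that could be shared.

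The 3 genes whose pattern over the 6 libraries was most like that of *Nr3c1*, by the smallest distance between log2 values centred on the vehicle mean among the 10557 other genes with a mean of at least 100, were *Sgms1* (distance 0.0483), *Rasal2* (0.0563) and *Spon2* (0.0621). *Sgms1*, a sphingomyelin synthase, had normalized counts of 904, 918 and 919 with vehicle and 653, 704 and 646 with corticosterone. *Rasal2*, an activator of Ras GTP hydrolysis, went from 654, 638 and 620 to 448, 491 and 462. *Spon2*, a secreted matrix protein, went from 3484, 3421 and 3491 to 2511, 2664 and 2603. Their log2 fold changes of -0.45, -0.45 and -0.42 follow from the choice, which was made on these same values.

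Of the immunophilins, *Fkbp5* rose and *Fkbp4* did not pass. *Fkbp5* (ENSMUSG00000024222, chromosome 17, 28399094 to 28517527, minus strand) had 467, 448 and 474 normalized counts with vehicle and 2543, 2337 and 2788 with corticosterone. The lowest corticosterone library was far above the highest vehicle library. The log2 fold change was 2.46 (SE 0.06, 95% confidence interval 2.33 to 2.60, limma adjusted p = 1.4e-13), which placed the gene 11th of all genes by p. Leaving out each library in turn gave 2.40 to 2.52. *Fkbp4* (ENSMUSG00000030357, chromosome 6, 128429735 to 128438677, minus strand) had 3659, 3455 and 3609 normalized counts with vehicle and 3252, 3349 and 3281 with corticosterone. Its groups did not overlap either, but in the opposite order, and the gap between the nearest libraries of the groups was no larger than the vehicle SD of 106. The log2 fold change was -0.12 (SE 0.04, 95% confidence interval -0.21 to -0.03), with a limma adjusted p of 0.070 that did not pass, while edgeR and DESeq2 on the recovered reads gave adjusted p of 0.042 and 0.049.

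Within a library the ratio of the immunophilins does not depend on scaling. The log2 ratio of *Fkbp5* to *Fkbp4* was -2.97, -2.95 and -2.93 with vehicle and -0.35, -0.52 and -0.24 with corticosterone. The groups were apart by 2.58 (SE 0.08), and the two-sided exact permutation p was 0.1, the smallest that 3 against 3 libraries can give (0.125 after Benjamini-Hochberg adjustment over the 5 pairs compared). Per kilobase of exon, *Fkbp4* was 26.2 ± 0.365 (SD, n = 3) times as abundant as *Fkbp5* with vehicle and 4.39 ± 0.436 times with corticosterone. The length is that of all annotated exons, 9468 bases for *Fkbp5* and 2795 for *Fkbp4*, so these ratios are approximate beyond their SDs. The vehicle SD of *Fkbp5*, 13.5, was also below the 20.1 that counting alone gives, so it is no measure of precision. In normalized counts not divided by length, *Fkbp5* went from 0.130 of *Fkbp4* to 0.774.

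The promoters of the immunophilin genes are shown because these relatives responded so unequally. They run from 250 bases before to 30 after the RefSeq start, GRCm38.p6, 5′ to 3′ on the gene's strand, at chr17:28486120-28486399 (minus) for *Fkbp5* and chr6:128438627-128438906 (minus) for *Fkbp4*. Capitals mark matches to the heat shock element searched, GAANNTTC or TTCNNGAA, on either strand.
Fkbp5: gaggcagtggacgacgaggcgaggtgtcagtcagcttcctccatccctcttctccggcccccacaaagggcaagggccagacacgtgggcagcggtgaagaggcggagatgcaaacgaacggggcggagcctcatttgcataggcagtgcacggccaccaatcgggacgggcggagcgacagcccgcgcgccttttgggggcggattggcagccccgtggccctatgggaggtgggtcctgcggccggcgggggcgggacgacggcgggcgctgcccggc
Fkbp4: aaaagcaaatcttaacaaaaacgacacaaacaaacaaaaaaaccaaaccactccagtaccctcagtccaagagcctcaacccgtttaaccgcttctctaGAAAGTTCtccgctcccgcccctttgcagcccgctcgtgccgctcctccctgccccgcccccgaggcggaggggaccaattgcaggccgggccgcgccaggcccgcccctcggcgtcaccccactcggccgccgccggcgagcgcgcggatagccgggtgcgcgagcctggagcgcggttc
The *Fkbp4* window holds the element 151 bases before the start, and 15.1% of the 32851 RefSeq promoter windows hold it. All searches and shares are for the full RefSeq windows of 300 bases, which run to 50 bases after the start. Neither window holds the core of the element that the receptor binds, ACANNNTGT, which 6.85% of windows hold, nor the longer form of that element with its consensus flanking bases, which 0.475% hold. Of the 10 genes 5 had a promoter in the RefSeq table (*Fkbp5*, *Fkbp4*, *Ptges3*, *Stip1* and *Nrip1*, 6 windows), and none of these windows held the receptor's core element. These windows say nothing of sites farther from the start.

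Among the genes whose pattern was most like that of *Fkbp5* were *Hspb7* (distance 0.260) and *Atp8b3* (0.336). *Hspb7*, a small heat shock protein known from muscle, had normalized counts of 307, 357 and 340 with vehicle and 1802, 1726 and 1801 with corticosterone. *Atp8b3*, a P4-ATPase, went from 36.5, 42.5 and 48.6 to 225, 239 and 244. Their log2 fold changes of 2.41 and 2.48 follow from the choice, which was made on these same values. *Atp8b3* reached a mean of at least 100 only through its corticosterone libraries.

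In the HSP90 pair the inducible isoform rose slightly and the constitutive isoform did not pass. *Hsp90aa1* (ENSMUSG00000021270, chromosome 12, 110690605 to 110702728, minus strand), the stress-inducible isoform, had 5931, 5228 and 5644 normalized counts with vehicle and 6137, 6582 and 6345 with corticosterone. The groups did not overlap, and the lowest corticosterone library was close to the highest vehicle library. The log2 fold change was 0.18 (SE 0.05, 95% confidence interval 0.08 to 0.29, limma adjusted p = 0.013). This call was lost when vehicle replicate 2, vehicle replicate 3, corticosterone replicate 2 or corticosterone replicate 3 was left out (log2 fold changes of 0.13 to 0.23 over all 6 fits, adjusted p up to 0.105), and under both other scalings. *Hsp90ab1* (ENSMUSG00000023944, chromosome 17, 45567775 to 45573271, minus strand), the constitutive isoform, had 39253, 38657 and 38897 with vehicle and 37720, 37161 and 37486 with corticosterone. Its groups did not overlap and its SDs were near 300, but the log2 fold change of -0.06 (SE 0.04, 95% confidence interval -0.13 to 0.02) did not pass, with a limma adjusted p of 0.36. The log2 ratio of *Hsp90aa1* to *Hsp90ab1* was -2.73, -2.89 and -2.78 with vehicle and -2.62, -2.50 and -2.56 with corticosterone, a difference of 0.24 (SE 0.06) without overlap (two-sided exact permutation p = 0.1, adjusted 0.125).

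Reads of *Hsp90aa1* can be shared with processed copies: 51.5% of its 31-base words occur in another annotated gene, against 13.2% for *Hsp90ab1*. The copies in the table with over 10% of its words were *Gm12346*, with 43 to 92 reads per library, and *Gm5844*, with 3 to 7, against 4960 to 7314 reads of *Hsp90aa1*. How the counting treated reads with several places is not given in the sources used here, so the value of *Hsp90aa1* is less certain than that of *Nr3c1*.

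*Ptges3* (ENSMUSG00000071072, chromosome 10, 128058954 to 128077272, plus strand), the p23 co-chaperone that closes the HSP90 complex, had 2576, 2298 and 2626 normalized counts with vehicle and 2340, 2465 and 2249 with corticosterone. The groups overlapped, and the log2 fold change of -0.09 (SE 0.06, 95% confidence interval -0.20 to 0.03) had a limma adjusted p of 0.36. Its processed copy *Ptges3-ps*, with 558 to 879 reads, holds 20.3% of its 31-base words and had a log2 fold change of 0.08 (adjusted p = 0.67).

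On the HSP70 side of the receptor's path, *Hspa8* rose and the adaptor *Stip1* did not pass. *Hspa8* (ENSMUSG00000015656, chromosome 9, 40800984 to 40810087, plus strand) had 31892, 30908 and 32195 normalized counts with vehicle and 39420, 37458 and 39987 with corticosterone. Each corticosterone library exceeded each vehicle library by far more than the vehicle SD of 673. The log2 fold change was 0.30 (SE 0.04, 95% confidence interval 0.22 to 0.38, limma adjusted p = 2.8e-05), and it stayed between 0.28 and 0.33 when each library was left out. Its call was lost in the fit without a variance trend, at an adjusted p of 0.059. Of its 31-base words 44.8% occur elsewhere, the copy with the most reads in the table being *Gm8355* with 39 to 64 reads, against 31126 to 40046 of *Hspa8*.

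*Stip1* (ENSMUSG00000024966, chromosome 19, 7020702 to 7039967, minus strand), which bridges HSP70 and HSP90, had 3907, 3687 and 3790 normalized counts with vehicle and 3602, 3382 and 3583 with corticosterone. The groups did not overlap, in the direction opposite to *Hspa8*, and the log2 fold change of -0.11 (SE 0.04, 95% confidence interval -0.20 to -0.02) had a limma adjusted p of 0.12. It was called lower under upper-quartile scaling (adjusted p = 0.021) and under scaling to the same total (adjusted p = 0.020). The log2 ratio of *Stip1* to *Hspa8* was -3.03, -3.07 and -3.09 with vehicle and -3.45, -3.47 and -3.48 with corticosterone. This ratio differed by -0.41 (SE 0.02), with the groups apart by far more than the SD of either (two-sided exact permutation p = 0.1, adjusted 0.125).

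The coregulators did not pass the test. *Ncoa2* (ENSMUSG00000005886, chromosome 1, 13139105 to 13374083, minus strand) had 1015, 993 and 998 normalized counts with vehicle and 931, 986 and 1003 with corticosterone. *Nrip1* (ENSMUSG00000048490, chromosome 16, 76287400 to 76373827, minus strand) had 239, 264 and 284 with vehicle and 259, 257 and 280 with corticosterone. Both overlapped between groups, with log2 fold changes of -0.04 (SE 0.05, 95% confidence interval -0.16 to 0.07) for *Ncoa2* and 0.02 (SE 0.09, 95% confidence interval -0.18 to 0.21) for *Nrip1*. The sign for *Nrip1* turned under both other scalings and when vehicle replicate 1 or corticosterone replicate 3 was left out. With 219 to 342 reads *Nrip1* was the most thinly covered of the 10 genes and had the widest interval of them. The log2 ratio of *Ncoa2* to *Nrip1* differed by -0.06 (SE 0.09, two-sided exact permutation p = 0.7, adjusted 0.7).

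Finally, *Fkbp5* was set against the receptor transcript. The log2 ratio of *Fkbp5* to *Nr3c1* was -2.65, -2.69 and -2.62 with vehicle and 0.30, 0.04 and 0.40 with corticosterone, a difference of 2.90 (SE 0.11) without overlap (two-sided exact permutation p = 0.1, adjusted 0.125). In normalized counts not divided by length, the *Fkbp5* transcript went from 0.159 of the receptor's to 1.19 of it.

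**Figure D3:**
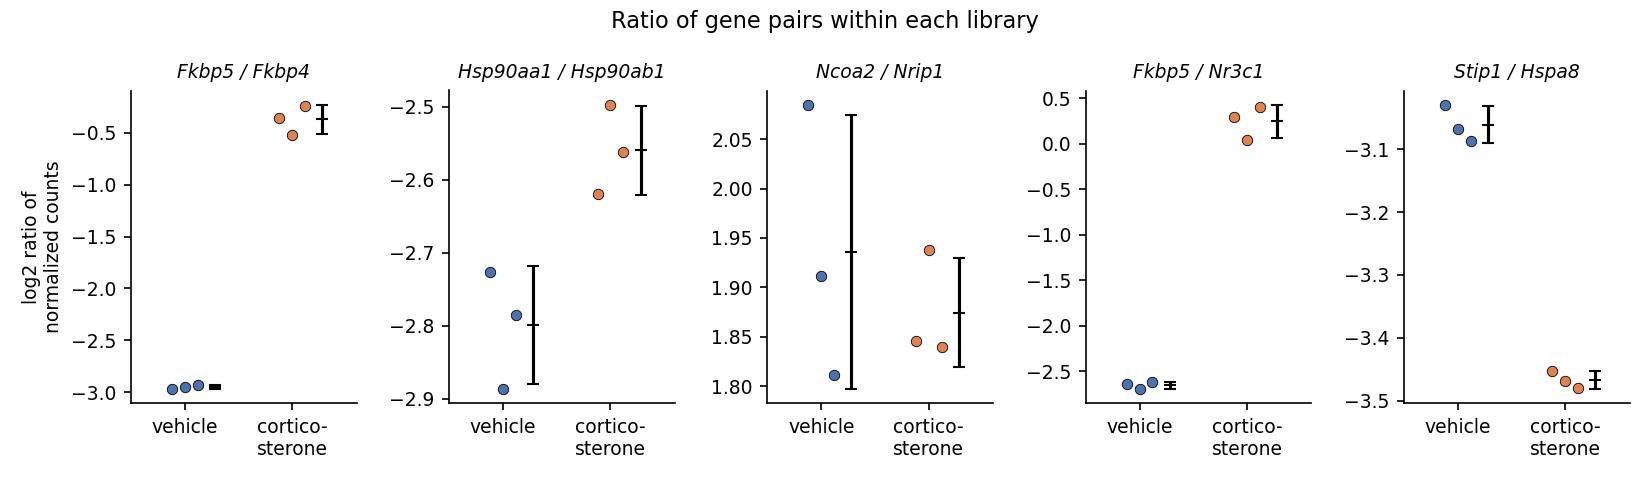
Log2 ratio of normalized counts within each library (y axes, each with its own range, not from 0) for the 5 gene pairs compared. Points are libraries, and the black marks are the group mean and SD. The groups are apart by 2.58 for *Fkbp5*/*Fkbp4*, 0.24 for *Hsp90aa1*/*Hsp90ab1*, 2.90 for *Fkbp5*/*Nr3c1* and -0.41 for *Stip1*/*Hspa8*, and they overlap for *Ncoa2*/*Nrip1*.

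Levels per kilobase of exon put the genes of the chaperone machinery, except *Fkbp5*, far above the receptor. With vehicle, the normalized count per kilobase was highest for *Hsp90ab1* at 12983 ± 100.1 (SD, n = 3) and *Hspa8* at 7362 ± 156, followed by *Stip1* at 1800 ± 52.2, *Hsp90aa1* at 1425 ± 89.9, *Fkbp4* at 1279 ± 38.1 and *Ptges3* at 1128 ± 79.8. *Nr3c1* stood at 379 ± 1.58, *Ncoa2* at 64.1 ± 0.735, *Fkbp5* at 48.9 ± 1.43 and *Nrip1* at 22.9 ± 1.98. With vehicle no neighbours in this order had overlapping libraries, but *Fkbp4* stood within 2 SDs of *Hsp90aa1* above it and of *Ptges3* below it. With corticosterone, *Fkbp5* reached 269.9 ± 23.8 per kilobase beside 280 ± 13.4 for *Nr3c1*, and the libraries of these genes overlapped. *Hsp90aa1* (1617 ± 56.6) and *Stip1* (1671 ± 57.8) also overlapped with corticosterone. The transcript of *Hsp90ab1* was 34.3 ± 0.126 times as abundant per kilobase as that of the receptor with vehicle and 44.7 ± 2.42 times with corticosterone. *Hspa8* went from 0.567 ± 0.00982 to 0.725 ± 0.0207 of *Hsp90ab1* per kilobase. The length used is that of all annotated exons of a gene, which is longer than any transcript where a gene has several, so these levels are approximate. The vehicle SDs of *Nr3c1*, *Fkbp5* and *Ncoa2* were below those that counting alone gives and are no measure of precision.

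**Figure D4:**
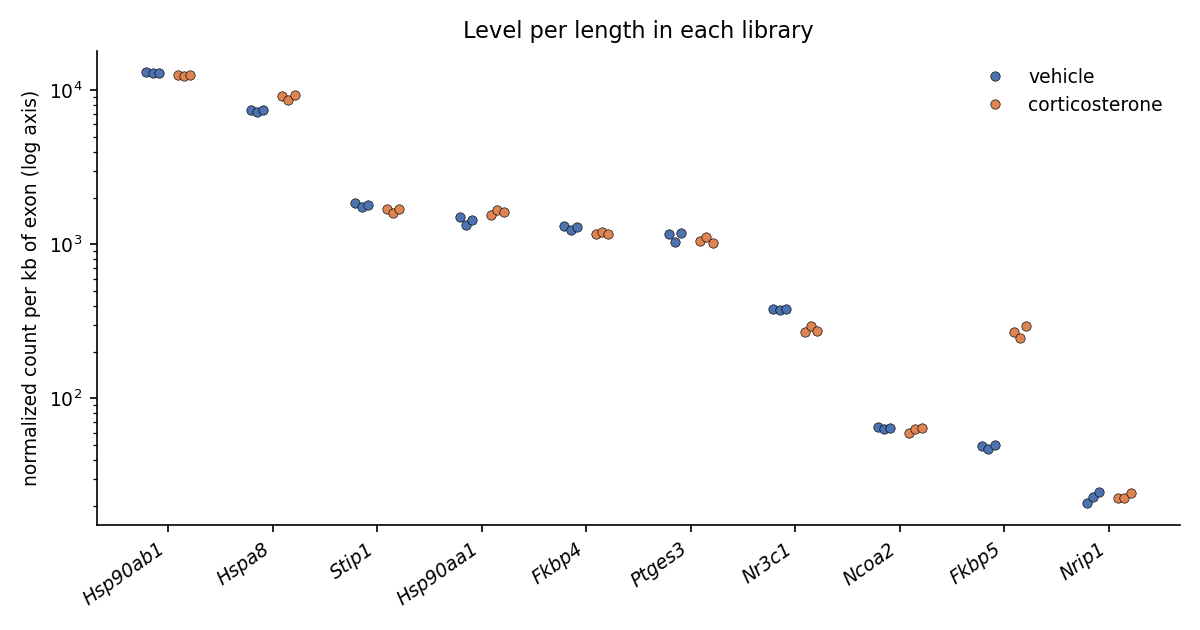
Normalized count per kilobase of annotated exon (log axis) of the 10 genes, ordered by their vehicle mean. Each point is a library, 3 with vehicle and 3 with corticosterone. Levels run from 22.9 for *Nrip1* to 12983 for *Hsp90ab1* with vehicle, and *Fkbp5* moves from 48.9 to 269.9, next to *Nr3c1* at 280.

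The wider machinery around these genes was followed in 8 lists of 111 other genes, 109 of them in the table. Of these, 17 were higher, 13 lower and 79 did not pass, so 27.5% were called, beside 16.7% of all genes and 32.6% of genes with a mean of at least 100. Under upper-quartile scaling 15 were higher and 23 lower, and under scaling to the same total 16 and 23. Only *Hsph1* was higher and *Aarsd1* lower by the rule that also asks for an absolute log2 fold change over 1. By adjusted p alone 8.49% of all genes were higher and 8.2% lower. Of genes with a mean of at least 100, 17.1% were higher and 15.5% lower. These shares stand beside the counts of each list below.

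Other HSP90 family members and co-chaperones split. Of 19 genes 2 rose and 3 fell, and the median log2 fold change was -0.01. *Unc45a*, a chaperone for myosin and steroid receptors, rose by 0.39 (971 to 1273 normalized counts) and *Cdc37l1*, a relative of the kinase co-chaperone CDC37, by 0.38 (1235 to 1612). *Pih1d1*, of the R2TP complex that works with HSP90, fell by 0.43 (589 to 438), and *Tomm34*, which passes proteins from HSP70 to HSP90 for mitochondrial import, fell by 0.28. *Aarsd1* fell by 1.42 on only 5 to 33 reads per library, and 41.0% of its exon bases are shared with the readthrough gene *Gm27029*. The calls of *Tomm34* and *Aarsd1* were lost when some single libraries were left out, those of the other 3 under none of 20 alternatives. *Hsp90b1*, the form in the endoplasmic reticulum, had a log2 fold change of -0.09 (adjusted p = 0.19) and *Trap1*, the form in mitochondria, 0.11 (adjusted p = 0.19).

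Among 23 other genes of the HSP70 family and its partners 6 rose and 2 fell, with a median of -0.02. Of all genes with a mean of at least 100, 17.1% rose and 15.5% fell by the same rule. *Hsph1*, the HSP110 that exchanges nucleotide for HSP70, had normalized counts of 2332, 2256 and 2296 with vehicle and 6799, 6577 and 6935 with corticosterone. Its groups were far apart, and the log2 fold change was 1.56 (SE 0.04, limma adjusted p = 1.6e-13). *Hspa1b*, an inducible HSP70, had 1195, 1189 and 1226 with vehicle and 1885, 1943 and 2087 with corticosterone, a log2 fold change of 0.71 (SE 0.05, limma adjusted p = 3.3e-08). Its near copy *Hspa1a* had 15 to 38 reads per library, and 67.7% of the 31-base words of *Hspa1b* occur in it, so the counts of the pair cannot be fully assigned. *Dnajb4*, an HSP40, rose by 0.33 and *Hspa4*, of the HSP110 family, by 0.28. *Dnaja1*, another HSP40 that serves steroid receptors, fell by 0.28 (3582, 3583 and 3534 with vehicle, 2937, 2966 and 2912 with corticosterone), and *Hspa13* fell by 0.18, a call lost under 9 of 20 alternatives.

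Of 10 other heat shock genes 5 rose, with a median of 0.16. By the same rule 8.49% of all genes rose, and 17.1% of those with a mean of at least 100. With limma 0 of the 10 heat shock genes were lower, also at an unadjusted p and with edgeR or DESeq2. *Hspb1* rose by 0.61 (67.6 to 103 normalized counts), *Cryab* by 0.47 (1194 to 1652), *Hspe1* by 0.39 (1875 to 2461) and *Hspd1* by 0.33 (4875 to 6123). Of their 31-base words 55.4%, 14.8%, 30.5% and 53.1%, in that order, occur in another annotated gene, so their values are less certain. The copy *Hspd1-ps3* had 103 to 203 reads per library, against 4661 to 6406 of *Hspd1*. *Hspb1* and *Cryab* encode small heat shock proteins, *Hspd1* the mitochondrial chaperonin and *Hspe1* its lid. *Hspb8*, named because it completes the 5, rose by 0.25. The transcripts of the heat shock factors that switch on such genes did not pass: *Hsf1* had a log2 fold change of 0.00 (adjusted p = 0.98) and *Hsf2* of -0.14 (adjusted p = 0.28). Transcript levels do not measure the activity of these factors, which was not tested. All 5 rises were called under both other scalings, and in the fit without a variance trend 2 of the 5 were. *Hspb1*, on 59 to 101 reads, lost its call without vehicle replicate 3, without corticosterone replicate 2 and with DESeq2 and the replicate block.

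Heat shock elements were looked for in the promoters of the HSP70 and other heat shock lists. The *Hsph1* window, chr5:149636286-149636565 (minus), is shown because this gene rose most, and the 30 bases around the element nearest the start are shown for the other genes that rose and hold one, with RefSeq starts on GRCm38.p6 and the elements in capitals. *Hspe1* is left out of the lines because it shares its site with *Hspd1* on the other strand.
Hsph1: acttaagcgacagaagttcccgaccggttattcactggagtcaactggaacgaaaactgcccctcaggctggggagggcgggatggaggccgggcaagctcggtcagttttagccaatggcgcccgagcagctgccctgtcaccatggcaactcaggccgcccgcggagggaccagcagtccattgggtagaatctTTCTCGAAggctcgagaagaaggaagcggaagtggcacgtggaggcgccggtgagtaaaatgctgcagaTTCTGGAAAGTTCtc
Hspa1b: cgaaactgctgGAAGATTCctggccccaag
Dnajb4: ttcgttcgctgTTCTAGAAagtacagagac
Hspb1: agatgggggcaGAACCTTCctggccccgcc
Hspb8: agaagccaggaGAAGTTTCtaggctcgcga
Hspd1: cTTCCGGAAGGTTCTAGAAcggaccgtggc
These lie at chr17:34959324-34959353 (minus) for *Hspa1b*, chr3:152193841-152193870 (minus) for *Dnajb4*, chr5:135887811-135887840 (plus) for *Hspb1*, chr5:116422844-116422873 (minus) for *Hspb8* and chr1:55088048-55088077 (minus) for *Hspd1*. Of the 8 genes in these lists that rose and had a RefSeq promoter, 7 hold an element, *Hspa4* being the other. Of the 18 that did not pass 5 hold one, and so does *Dnaja1*, which fell. The *Hspa1a* window holds the same 30 bases as *Hspa1b* and that gene did not pass, with 23.8 normalized counts with vehicle and 22.3 with corticosterone. Its 15 to 38 reads per library cannot be fully told from those of *Hspa1b*, in which 63.8% of its 31-base words occur. The values therefore cannot show that the promoters of the pair responded differently. Among the 10 genes followed here, 1 of the 5 with a RefSeq promoter, *Fkbp4*, holds an element. Of all 32851 RefSeq windows 15.1% hold one. A gene was counted when any of its windows held an element, and *Dnajb4* and *Hspd1* also have a window without one. *Hspd1* and *Hspe1* were both counted for their shared site. Without a variance trend the calls of *Hspa4*, *Dnajb4*, *Hspb8*, *Hspd1* and *Hspe1* were lost. The part of these elements in the rises was not tested.

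No other FK506-binding protein moved on the scale of *Fkbp5*. Of 12 measured 3 fell, with a median of -0.07, and 0 rose with limma (3 at an unadjusted p, 3 with edgeR and 1 with DESeq2: *Fkbp1a* with each, *Fkbp11* and *Fkbp15* with edgeR). These 3, *Fkbp9*, *Fkbp14* and *Fkbp10*, act on collagen and other proteins in the endoplasmic reticulum, and they fell by 0.27, 0.18 and 0.15. All 3 calls were lost without a variance trend, and those of *Fkbp14* and *Fkbp10* also without vehicle replicate 3 and without corticosterone replicate 3 or 1, respectively. *Fkbp9* had normalized counts of 14053, 13776 and 13406 with vehicle and 11093, 11240 and 11898 with corticosterone, without overlap. *Fkbp8*, an HSP90 partner at mitochondria, had a log2 fold change of 0.07 (adjusted p = 0.49) and *Fkbp1a*, the FKBP12 that binds FK506, 0.11 (limma adjusted p = 0.077).

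Of 16 other coactivators 3 rose and 2 fell, with a median of 0.00. *Ep300*, a histone acetyltransferase that works with the receptor, went from 1894, 1858 and 1867 normalized counts with vehicle to 2575, 2655 and 2693 with corticosterone, a log2 fold change of 0.50 (SE 0.04, limma adjusted p = 3.7e-07). Its relative *Crebbp* had a log2 fold change of 0.00 (adjusted p = 0.98). *Ppargc1b*, a coactivator of mitochondrial genes, rose by 0.77 on a low count (49.5 to 84.7), and *Tgfb1i1* (Hic-5), a focal adhesion protein that also binds the receptor, by 0.21. In the p160 family, to which *Ncoa2* belongs, *Ncoa1* fell by 0.31 (648, 604 and 655 with vehicle, 479, 516 and 542 with corticosterone) while *Ncoa3* had a log2 fold change of 0.15 (adjusted p = 0.14) and *Ncoa2* of -0.04. *Ncoa7* fell by 0.35. The call was lost under 4 of 20 alternatives for *Ncoa7* (single-library fits without vehicle replicate 3, corticosterone replicate 1 or corticosterone replicate 3 among them), under 2 for *Ncoa1* (without vehicle replicate 3 or a variance trend) and under 2 for *Tgfb1i1* (upper-quartile scaling or no variance trend). *Ppargc1a* had no more than 3 reads in any library.

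Of 13 other corepressors *Hdac2*, a histone deacetylase, fell by 0.26 and *Tbl1x*, a subunit of the NCoR complex, rose by 0.17, a call lost under both other scalings. Of the 12 genes of nuclear transport and dynein-based movement 0 passed with limma, edgeR or DESeq2. At an unadjusted limma p 2 were higher and 2 lower, and 2 were called lower under either other scaling. Among the other steroid receptors *Esr1*, oestrogen receptor alpha, fell by 0.42 (349, 293 and 338 with vehicle, 223, 245 and 265 with corticosterone), without overlap. This call was lost without vehicle replicate 3, without a variance trend and with DESeq2 and the replicate block. *Nr3c2*, the mineralocorticoid receptor that also binds corticosterone, had 0 to 4 reads per library, at about the floor of 3 reads used here.

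**Figure D5:**
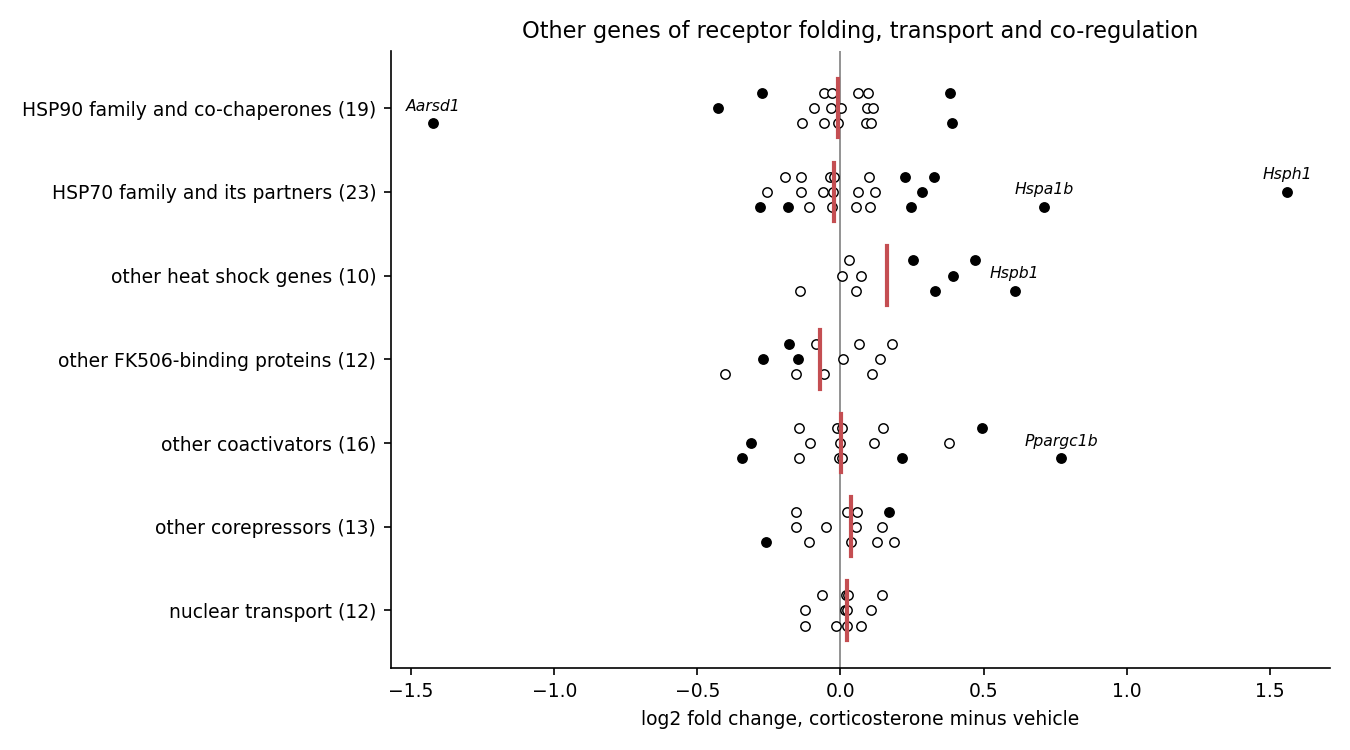
Log2 fold change, corticosterone minus vehicle (x axis), of each gene in 7 of the lists around the receptor, with the number measured in brackets. Filled points have a limma adjusted p under 0.05 over all genes, open points do not, and red bars are list medians. *Hsph1* at 1.56 and *Aarsd1* at -1.42 lie farthest out, and all points of nuclear transport are open.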

How the data were processed

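RNA was isolated on columns and libraries were made with a NEBNext Ultra kit, per the labels, and sequenced on an Illumina platform. The authors deposited values that are named FPKM and are never negative, a signal for each gene in each library. Within a library all values shared a common step whatever the gene's length, so they are read counts that the authors had divided by a size factor (0.782 to 1.30). Division by the step gave whole reads (within 0.02) for 100% of values. The labels name mm10, and the aligner, the counting program and its use of strand are not given in the sources used here.

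The main test was limma 3.58.1 (R 4.3.3, variance trend, two-sided) on log2(value + 0.1), fitted and adjusted by Benjamini-Hochberg over all 24016 genes, each of which passed the filter (a mean of 0.1 or more). The design assumed FPKM and was kept. Alternatives were edgeR 4.0.16 and DESeq2 1.42.0 (the authors' own tool) on recovered reads, other scalings, filters, pseudocounts and variance priors, and fits without each library. Code was tested on simulated data. Gene names came from GENCODE M21 (23983 identifiers matched). The 95% intervals are limma's and rest on the spread between libraries, while the floor of 3 reads (a normalized count of 2.32 to 3.84) covers counting error only. The series calls the libraries biological replicates without saying how the cultures were kept apart, so p-values measure the spread between these libraries.

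Of the genes the rule below names, 2 are not reported here. The genes and lists were chosen with earlier results of these data known. Named were the 10 genes, up to 4 called genes per list and direction with the largest change, list genes with no more than 3 reads, relatives of the 10, the 3 genes most alike to *Nr3c1* and *Fkbp5*, and copies holding over 10% of a gene's 31-base words. *Hspb8*, *Hsf1*, *Hsf2*, *Crebbp*, *Fabp4*, *Plin1*, *Col2a1*, *Col10a1*, *Spp1*, *Cdkn1a*, *Mt2*, *Trap1* and the *Nr3c2* range were added after their values were seen.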

Additional observations from a re-analysis of the deposited data

How the results depend on the processing

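The directions of *Nr3c1*, *Fkbp5*, *Hspa8* and *Hsp90aa1* held under all 20 alternatives, as did the calls of *Nr3c1* and *Fkbp5*. *Hsp90aa1* passed no longer without a variance trend (0.18), with upper-quartile scaling (0.11) and with scaling to the same total (0.14), and lay between 0.13 and 0.23 without single libraries. *Hspa8* passed no longer without a variance trend (0.30). *Fkbp4* passed with a mean of at least 10 (-0.12), upper-quartile scaling (-0.19), the same total (-0.16), edgeR (-0.12), DESeq2 (-0.12) edgeR with the replicate block (-0.12) and without vehicle replicate 2 (-0.14), and ranged from -0.14 to -0.10 without single libraries. *Stip1* passed with upper-quartile scaling (-0.18), the same total (-0.15) and edgeR with the replicate block (-0.11). *Nrip1* turned negative with upper-quartile scaling (-0.050) and the same total (-0.023), and ranged from -0.046 to 0.078 without single libraries. The *Ncoa2*/*Nrip1* ratio ranged from -0.12 to 0.013 without single libraries and turned without vehicle replicate 1. Causes of these shifts were not tested.

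Of the 10 genes, 1 was called higher without a variance trend, and 2 were called lower with a mean of at least 10, edgeR and DESeq2, 3 with upper-quartile scaling, the same total and edgeR with the block, and 1 to 2 without single libraries. By adjusted p alone, 873 genes of the table were higher and 760 lower without a variance trend, 1349 higher with upper-quartile scaling and 1254 lower with DESeq2 and the block, against 2040 and 1970, and without single libraries 1148 to 1611 were lower, the fewest without vehicle replicate 3. Lower genes that also passed the fold numbered 198 with DESeq2 and the block and 204 to 321 without single libraries, against 337. Of the 8 lists, 12 genes were called without a variance trend, against 30. Same-numbered libraries did not deviate together (correlations -0.044, 0.0014 and 0.023 over 13880 genes). The values thus showed no pairing by number, but they cannot show whether same-numbered cultures were set up together. With the replicate block limma called 2012 genes higher and 1893 lower and changed no call of the 10 genes. With 3 libraries a group no exact permutation p could fall below 0.1.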
